A study of Arabidopsis thaliana with 36 samples.

Results

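The roots described here come from wild-type Arabidopsis thaliana seedlings of the accession Columbia-0 that had been placed in water for 1 h and carry the title prefix PS0. They are 3 of the 36 libraries of the series and were chosen by that prefix, and were set against the mean of the 2 other water root sets, S0 and PH0, with 3 libraries and equal weight each. All 9 libraries share genotype, tissue, age and label: 7 d old seedlings raised at 21 °C with 16 h of light on Murashige and Skoog medium holding 1% sucrose, then 1 h in water, with 30 to 50 seedlings pooled per biological replicate. The labels state no difference between the 3 sets beyond the prefix, and the design text gives 0 h where the labels give 1 h. The remaining root libraries had received 30% polyethylene glycol (PEG) of -2.0 MPa with salicylhydroxamic acid (SHAM) for 1, 2 or 3 h. The labels give that SHAM as 1 mM, whereas the treatment protocol also names 0.1 mM. Shoots of the same 3 water sets and 3 treatments make up the rest. The comparison asks how far roots under 1 water label differ between sets.

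Plant cells that run short of sugar switch on a group of genes through the energy-sensing kinase SnRK1 and bZIP transcription factors, among them enzymes that draw on amino acids as fuel. Loss of water raises abscisic acid (ABA), which acts through ABA-responsive promoter elements. A parallel ABA-independent route uses DREB factors and the dehydration-responsive element, and both lead to dehydrins and other protective proteins. Roots also make walls that differ by cell type, with extensins in growing root hairs and lignin or suberin around the endodermis.

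PS0 water roots differed from the other water roots in 3 ways among the genes listed here. Sugar starvation genes such as SEN1, ASN1 and ATL8 and dehydration genes such as LTI78 and XERO2 were higher. Extensin genes and some root hair and endodermis markers were lower. The levels are normalized counts, which are read counts divided by 1 size factor per library, and the differences are log2 differences of these counts plus 1, with their standard error (SE). A gene was called when limma's moderated test gave a Benjamini-Hochberg adjusted p under 0.05 over all 11950 tested genes. Of these, 471 were called (3.94%), 169 higher in PS0 (1.41%) and 302 lower (2.53%). All 3 PS0 libraries lay above the 6 others in 552 tested genes (4.62%) and below them in 914 (7.65%), and 156 (1.31%) and 263 (2.2%) of these were also called. The calls had a median size of 1.43 on the log2 scale among the higher and 1.69 among the lower genes. None of 18 chloroplast and 20 mitochondrial genes was called by limma, edgeR or DESeq2, with 3 of these 38 at an unadjusted p under 0.05 in limma.

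The 3 PS0 libraries held 1161.4, 1240.0 and 521.0 kiloreads of recovered reads, the S0 libraries 1891.6, 862.5 and 1883.2 kiloreads and the PH0 libraries 2446.2, 2651.5 and 2085.1 kiloreads. PS0 replicate 3 stood apart: it was the shallowest of the 9, and over log2 values it correlated with PS0 replicates 1 and 2 at r = 0.83 and 0.865, against 0.946 between those 2. In that library 1 read counts for 3.105 normalized counts, so a value of 0 allows up to 9.31, counting error only. Over the 11950 tested genes the log2 difference had a median of -0.148, but 0.009 after quantile normalization and -0.032 with edgeR. In the same limma fit the excess of lower over higher calls remained with TMM scaling (170 higher and 202 lower) and turned round with quantile normalization (301 higher and 250 lower). The count models edgeR (204 higher and 131 lower) and DESeq2 (309 and 252), which change more than the scaling, also called more genes higher. Leaving out 1 library reduced the count of 471 to 255 without S0 replicate 1, 256 without S0 replicate 3, 270 without PS0 replicate 1, 222 without PS0 replicate 3 (69 higher and 153 lower, which are 0.594% and 1.32% of 11610 genes), and 303, 267 and 243 without PH0 replicates 1, 2 and 3. Against each set alone, PS0 roots had 146 genes higher and 386 lower than S0 (1.22% and 3.23%) and 117 higher and 147 lower than PH0 (0.979% and 1.23%), 2 comparisons that share the PS0 libraries. The count of 532 against S0 (4.45%) fell to 135, 131 and 144 without S0 replicates 1, 2 and 3, to 221 without PS0 replicate 1, and to 348, 345 and 340 without PH0 replicates 1, 2 and 3. The count of 264 against PH0 (2.21%) fell to 129 without PS0 replicate 3 and to 105, 86 and 84 without PH0 replicates 1, 2 and 3. For scale, S0 and PH0 roots differed from each other in 463 genes (3.87%), 408 of them higher in S0 (3.41%) and 55 lower (0.46%). P-values of the root comparisons measure the spread between replicates within a group, pooled over the 6 root groups, PEG+SHAM roots included. They do not measure the spread between sets.

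The 5′ flanks of the 6 sugar starvation and dehydration genes with the largest moderated statistic are shown because these genes carry the first 2 groups of rises. Each is the 250 bases before the annotated gene start in the RefSeq annotation of TAIR10.1, matched by locus name, and the sources used here do not name the build behind the deposited values. Capitals mark 4 motifs, searched on either strand. The core of the ABA-responsive element is ACGTG. The G-box, CACGTG, holds that core within it. TATCCA belongs to a sugar response element. The core of the dehydration-responsive element is CCGAC.
SEN1, chr4:16944628-16944877, plus strand: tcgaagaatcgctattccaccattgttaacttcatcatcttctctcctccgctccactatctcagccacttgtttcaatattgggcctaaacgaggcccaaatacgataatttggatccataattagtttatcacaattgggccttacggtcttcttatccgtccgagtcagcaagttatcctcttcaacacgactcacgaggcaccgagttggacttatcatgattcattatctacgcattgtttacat
ASN1, chr3:17441432-17441681, minus strand: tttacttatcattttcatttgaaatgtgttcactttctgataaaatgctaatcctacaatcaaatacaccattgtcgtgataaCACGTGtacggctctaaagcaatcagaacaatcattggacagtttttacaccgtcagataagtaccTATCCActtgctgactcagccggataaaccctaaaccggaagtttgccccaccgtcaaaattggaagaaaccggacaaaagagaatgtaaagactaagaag
ATL8, chr1:28668414-28668663, plus strand: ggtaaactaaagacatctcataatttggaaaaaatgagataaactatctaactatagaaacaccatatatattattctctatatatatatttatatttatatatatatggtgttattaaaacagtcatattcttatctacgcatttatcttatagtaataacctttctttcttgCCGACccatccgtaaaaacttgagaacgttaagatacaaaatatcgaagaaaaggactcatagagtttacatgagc
LTI78, chr5:21240467-21240716, plus strand: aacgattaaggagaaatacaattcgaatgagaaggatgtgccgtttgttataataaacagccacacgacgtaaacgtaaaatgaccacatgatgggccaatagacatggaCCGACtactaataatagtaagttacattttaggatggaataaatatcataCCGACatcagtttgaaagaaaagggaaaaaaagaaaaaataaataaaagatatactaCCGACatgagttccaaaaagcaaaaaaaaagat
XERO2, chr3:18940393-18940642, plus strand: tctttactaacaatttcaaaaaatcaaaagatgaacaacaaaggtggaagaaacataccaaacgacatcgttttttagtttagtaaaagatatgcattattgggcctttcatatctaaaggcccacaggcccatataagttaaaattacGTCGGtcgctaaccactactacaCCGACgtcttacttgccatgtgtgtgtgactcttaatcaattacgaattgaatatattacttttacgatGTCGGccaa
KIN1, chr5:5209467-5209716, plus strand: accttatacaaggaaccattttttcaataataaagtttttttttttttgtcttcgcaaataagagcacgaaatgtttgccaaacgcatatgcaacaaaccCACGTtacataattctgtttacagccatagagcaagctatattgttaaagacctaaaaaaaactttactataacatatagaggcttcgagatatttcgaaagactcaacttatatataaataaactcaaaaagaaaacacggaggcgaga
CCGAC was chosen after these sequences had been read. It occurred 3 times each in LTI78 (140, 90 and 33 bases before the start) and XERO2 (101, 78 and 9 bases) and once in ATL8 (76 bases). ASN1 held a CACGTG 167 bases and a TATCCA 101 bases before its start, and KIN1 held an ACGTG on the opposite strand 150 bases before it. None of the 4 motifs was found in the window of SEN1. Of 27443 protein-coding nuclear genes, 22.9% had an ACGTG in the same window, 6.49% a CACGTG, 13.6% a TATCCA and 12% a CCGAC. Among 31 tested dehydration genes ACGTG was found in 19, CACGTG in 6, TATCCA in 7 and CCGAC in 12. Among 21 tested sugar starvation genes ACGTG was found in 5, CACGTG in 1, TATCCA in 8 and CCGAC in 3.

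Genes that plants switch on when sugar runs out were raised in PS0 roots, with 6 of 21 tested members of that list higher and none lower, beside 1.41% of all tested genes called higher. The list has 23 members, of which 22 are in the table. Like the other lists here it was written with earlier results of these data known, which may favour its share of calls. Its median log2 difference was 0.78, beside -0.15 for all tested genes, and 19 of the 21 lay above 0. The median was 0.14 against S0 alone and 1.41 against PH0 alone. For scale, the 10 reference genes had medians of -0.71 against S0 and 0.41 against PH0. The rapid stress and touch list went the other way, at 0.5 and -0.34. SEN1, a gene induced by darkness and senescence, had 154.9, 128.4 and 291.9 normalized counts in the PS0 libraries, against 7.4, 12.7 and 19.7 in S0 and 20.1, 18.9 and 14.5 in PH0. Every PS0 library was thus above all 6 others, by a log2 difference of 3.52 ± 0.39 SE (adjusted p = 5.45e-05, limma). The difference was of like size against S0 (3.76 ± 0.45) and PH0 (3.28 ± 0.45). ASN1 encodes an asparagine synthetase that stores nitrogen when carbon is scarce. It had 480.8, 265.6 and 322.9 normalized counts in PS0, against 34.1, 58.6 and 53.5 in S0 and 83.3, 108.1 and 125.7 in PH0. The PS0 libraries lay above all others, S0 lay lowest, and the log2 difference was 2.28 ± 0.24 (adjusted p = 5.28e-05, limma).

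ATL8, a RING-type ubiquitin ligase, showed 208.5, 181.5 and 145.9 normalized counts in PS0, against 39.0, 45.9 and 30.6 in S0 and 64.0, 57.6 and 72.1 in PH0. The sets did not overlap, and the log2 difference was 1.82 ± 0.22 (adjusted p = 0.000116, limma). SEN1, ASN1 and ATL8 were called with any 1 of the 9 water libraries left out, at adjusted p of 0.000117 to 0.0024. The other 3 calls were less secure. DRM2, a dormancy-associated gene, averaged 4342.3 ± 1472.5 normalized counts in PS0, against 1368.2 ± 480.7 in S0 and 1582.6 ± 194.6 in PH0 (SD, n = 3 each), a log2 difference of 1.54 ± 0.38. Its adjusted p by limma was 0.0303, and between 0.0355 and 0.16 with 1 library left out, over 0.05 in 7 of 9 cases. DIN3, the acyltransferase subunit of the branched-chain 2-oxoacid dehydrogenase, averaged 47.7 ± 15.4 in PS0, against 10.6 ± 0.458 in S0 and 7.2 ± 1.71 in PH0, at 2.28 ± 0.57. The hexose transporter STP1 averaged 635.4 ± 16.0, against 295.7 ± 63.3 in S0 and 435.8 ± 19.0 in PH0, at 0.83 ± 0.22. For DIN3 limma gave an adjusted p of 0.0319 (0.0503 to 0.148 with 1 library left out, over 0.05 in 9 of 9 cases) and for STP1 of 0.0394 (0.0436 to 0.118, over 0.05 in 8 of 9). With any 1 library left out the list had 3 or 4 calls. DIN10, a raffinose synthase family member induced by darkness, was not called, with 357.1 ± 67.4 in PS0, 325.9 ± 85.8 in S0 and 264.1 ± 35.6 in PH0.

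Enzymes that take amino acids apart for fuel held 2 further calls. Of 10 tested genes of branched-chain amino acid breakdown 2 were higher and none lower, beside 1.41% of all tested genes called higher, with a list median of 0.62 (0.26 against S0 alone and 1.21 against PH0 alone). Without PS0 replicate 3 the list had 1 call. MCCB, a subunit of methylcrotonyl-CoA carboxylase in leucine breakdown, had 123.5, 88.5 and 83.8 normalized counts in PS0, against 14.2, 14.2 and 25.5 in S0 and 38.9, 37.4 and 45.8 in PH0. Its log2 difference was 1.83 ± 0.27 (adjusted p = 0.000841, limma), and at most 0.0103 with any 1 library left out. BCAT2, an aminotransferase that starts this breakdown, had 23.3, 16.8 and 34.2 in PS0 and at most 4.7 in S0 and 4.9 in PH0, a log2 difference of 2.49 ± 0.51. The adjusted p by limma was 0.0109 for BCAT2, and 0.0663 without PS0 replicate 3. IVD, the isovaleryl-CoA dehydrogenase of the same pathway, averaged 63.0 ± 18.1 in PS0, 27.7 ± 13.9 in S0 and 9.1 ± 2.77 in PH0 and was not called (adjusted p = 0.0734, limma). Outside the lists, the threonine aldolase THA1 had 27.3, 27.4 and 46.6 in PS0, against 3.1, 3.2 and 1.3 in S0 and 5.8, 7.0 and 5.6 in PH0, at 2.78 ± 0.33 (adjusted p = 8.51e-05, limma).

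Among 7 proline genes 1 was called higher, beside 1.41% of all tested genes. The list median was 0.16 (-0.31 against S0 alone and 0.15 against PH0 alone), with 4 of the 7 above 0 and 3 below it, down to -1.3. At an unadjusted p under 0.05 by limma 1 was higher and 2 were lower. P5CDH, the second enzyme of proline breakdown, had 238.9, 221.3 and 236.0 normalized counts in PS0, against 104.7, 101.3 and 114.6 in S0 and 132.5, 130.3 and 144.1 in PH0. The values were tight within each set, and the log2 difference of 0.94 ± 0.14 was called (adjusted p = 0.0011, limma). PRODH1, which catalyses the step before it, averaged 1795.2 ± 141.1 in PS0, 1124.2 ± 6.58 in S0 and 1385.5 ± 121.7 in PH0, at 0.52 ± 0.25, and was not called. The synthesis gene P5CS1, which osmotic stress is known to induce, averaged 31.0 ± 11.2 in PS0, 16.1 ± 4.45 in S0 and 27.3 ± 6.92 in PH0, with overlapping libraries and no call.

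Genes that use or store sugar held few calls, beside 1.41% of all tested genes called higher. Of 16 tested sucrose and hexose genes 1 was higher, the cytosolic invertase CINV1 (754.3 ± 76.7 normalized counts in PS0, 469.8 ± 41.1 in S0 and 537.0 ± 42.3 in PH0), and of 10 starch degradation genes 1 was higher, the debranching enzyme ISA3 (56.8 ± 7.86 in PS0, 21.5 ± 6.57 in S0 and 34.9 ± 1.72 in PH0). The log2 differences were 0.58 ± 0.16 for CINV1 and 1.04 ± 0.27 for ISA3. Both calls were marginal, with adjusted p by limma of 0.0486 for CINV1 (0.0669 to 0.173 with 1 library left out, over 0.05 in 9 of 9 cases) and 0.0424 for ISA3 (0.035 to 0.165, over 0.05 in 8 of 9). The median was -0.4 for the sucrose and hexose list and -0.1 for the starch list, which became 0.14 after quantile normalization. Neither of 2 tested sugar-induced genes and none of 6 galactinol and raffinose genes was called by limma, with 1 of the sugar-induced and 0 of the galactinol genes at an unadjusted p under 0.05. edgeR called 0 of either list, and DESeq2 1 and 0.

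**Figure D1:**
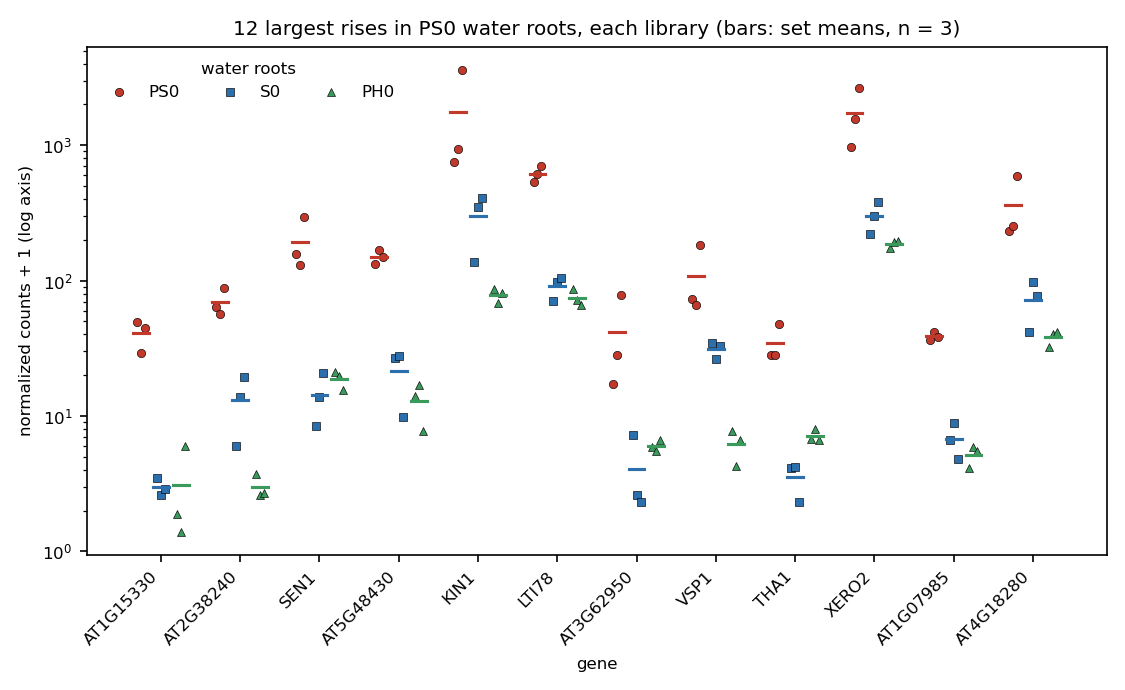
Normalized counts plus 1 (log axis) of the 12 largest called rises that met the conditions given here, in the 3 PS0 (red circles), 3 S0 (blue squares) and 3 PH0 (green triangles) water root libraries, with bars for the set means. The genes were chosen among called nuclear genes with a PS0 mean of at least 20 and all 3 PS0 points above the 6 others, so that separation is part of the choice. PS0 replicate 3, the last red point of each gene, is the highest for KIN1 with 3586.2 counts.

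Dehydration and ABA response genes formed the other large group of rises. This list too was written with earlier results of these data known. Of 36 listed genes 34 are in the table and 31 were tested, of which 8 were higher and none lower (1.41% of all tested genes were called higher), with a median log2 difference of 0.85. The median was 0.63 against S0 alone, with 3 called higher, and 0.95 against PH0 alone, with 7 called higher. LTI78, also known as RD29A and a standard marker of drought, cold and salt, had 535.4, 610.0 and 701.7 normalized counts in PS0, against 70.0, 96.6 and 103.8 in S0 and 85.1, 71.1 and 64.8 in PH0. No PS0 library came near the others, and the log2 difference was 2.91 ± 0.26 (adjusted p = 1.02e-05, limma). The dehydrin XERO2, a hydrophilic protein of cold and drought, had 970.7, 1566.1 and 2661.0 in PS0, against 219.9, 300.8 and 376.9 in S0 and 172.8, 193.2 and 193.8 in PH0, at 2.77 ± 0.33 (adjusted p = 8.51e-05, limma). These 2 were called with any 1 library left out, at adjusted p of 4.21e-05 to 0.00129.

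The call was lost for the other 6 when a library was left out, and PS0 replicate 3 was the highest library for each of them. KIN1 and its neighbour KIN2 encode small hydrophilic stress proteins of near-identical sequence, whose reads may be shared. KIN1 had 750.0, 941.1 and 3586.2 normalized counts in PS0, against 136.9, 349.8 and 404.3 in S0 and 86.0, 67.4 and 79.3 in PH0, at 3.23 ± 0.63. KIN2 had 3056.7, 3365.9 and 8563.5 in PS0, against 935.2, 1318.6 and 1415.3 in S0 and 550.7, 463.4 and 454.7 in PH0, at 2.54 ± 0.54. LEA14, a late embryogenesis abundant protein, had 1346.2, 1164.2 and 2909.4 in PS0, against 434.2, 554.0 and 550.1 in S0 and 428.4, 460.5 and 553.6 in PH0, at 1.75 ± 0.39. No PS0 library overlapped the other sets for these 3 genes. The adjusted p by limma was 0.00768 for KIN1, 0.0141 for KIN2 and 0.0176 for LEA14, and 0.0668, 0.103 and 0.129 without PS0 replicate 3, the 1 library whose removal ended the call. The dehydrin ERD10 (1.08 ± 0.29), the NAC transcription factor RD26 (1.14 ± 0.31) and AFP3, which binds the ABA factor ABI5 (0.95 ± 0.25), had adjusted p of 0.0433, 0.046 and 0.0433 by limma. With 1 library left out these reached up to 0.225, 0.244 and 0.21, and the call was lost in 8, 9 and 8 of 9 cases. Without PS0 replicate 3 the list had 2 calls, without any 1 of the S0 or PH0 libraries 5, and without PS0 replicate 1 or 2 it had 7 or 6.

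Several of the best known ABA genes were at low levels in every water set. RAB18, a dehydrin that responds to ABA, averaged 7.7 ± 9.52 normalized counts in PS0, 0.833 ± 0.723 in S0 and 1.0 ± 0.656 in PH0, and NCED3, which commits carotenoids to ABA synthesis, averaged 0.9 ± 1.56 in PS0, 0.433 ± 0.751 in S0 and 2.03 ± 0.764 in PH0. Neither was called, and for both the sets overlapped. HB7, an ABA-induced transcription factor, was lowest in PS0 with 36.4 ± 13.7, against 60.4 ± 5.63 in S0 and 86.8 ± 15.4 in PH0, and was not called (adjusted p = 0.154, limma). COR47, an abundant dehydrin, averaged 10564.4 ± 4143.7 in PS0, 5178.1 ± 108.8 in S0 and 3723.8 ± 260.7 in PH0 and narrowly missed the threshold (adjusted p = 0.0581, limma). None of 8 clade A PP2C phosphatases, which restrain ABA signalling, and none of 18 aquaporins was called by limma, with 2 and 6 of them at an unadjusted p under 0.05. edgeR called 0 phosphatases and 2 aquaporins, and DESeq2 1 and 2.

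**Figure D2:**
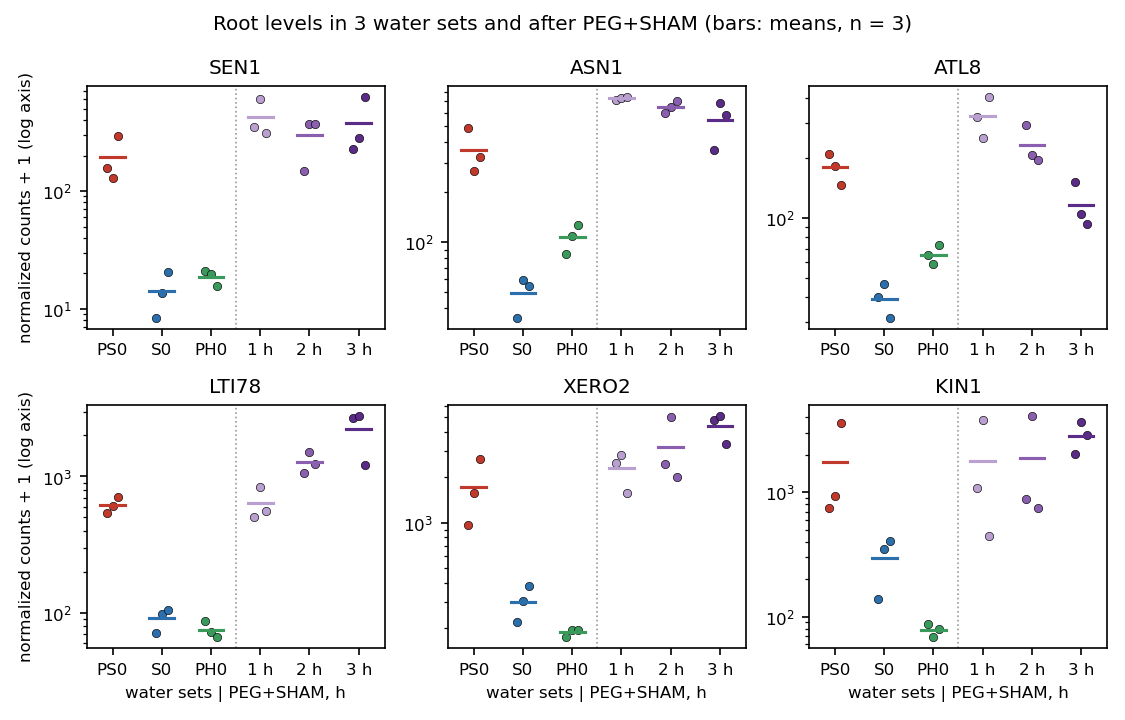
Normalized counts plus 1 (log axis) of SEN1, ASN1, ATL8, LTI78, XERO2 and KIN1 in the PS0, S0 and PH0 water roots and in roots after 1, 2 and 3 h of PEG+SHAM, with a point per library and bars for means (n = 3). The PS0 means of LTI78 (615.7) and KIN1 (1759.1) are close to the means at 1 h (633.2 and 1784.4). For KIN1 both means rest largely on 1 library each, with 3586.2 in PS0 and 3817.3 at 1 h.

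Set beside the roots given PEG+SHAM, the water level of PS0 reached the range of the treated libraries for several of these genes. LTI78 averaged 615.7 ± 83.3 normalized counts in PS0 water, 90.1 ± 17.8 in S0 and 73.7 ± 10.4 in PH0, and 633.2 ± 177.9, 1266.9 ± 221.3 and 2220.2 ± 873.9 after 1, 2 and 3 h of treatment. KIN1 averaged 1759.1 ± 1585.2 in PS0 water, against 1784.4 ± 1789.8 at 1 h, 1900.2 ± 1879.4 at 2 h and 2855.1 ± 826.9 at 3 h. In PS0 water and at 1 and 2 h the KIN1 mean rested largely on 1 library, with 3586.2, 3817.3 and 4068.9. SEN1 averaged 191.7 ± 87.8 in PS0 water and 420.2 ± 158.4, 295.5 ± 129.2 and 378.0 ± 217.2 at the 3 times. MCCB, at 98.6 ± 21.7 in PS0 water, stood at 109.2 ± 24.3, 88.3 ± 43.9 and 77.3 ± 4.9. NCED3, low in all water sets, averaged 22.7 ± 17.8 at 1 h and 47.9 ± 10.1 at 3 h. These levels are a description without a test.

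Jasmonate-responsive storage proteins were raised as well, but 2 of 13 tested jasmonate genes carried this, beside 1.41% of all tested genes called higher. VSP1 had 71.9, 65.5 and 183.2 normalized counts in PS0, against 33.4, 25.3 and 31.8 in S0 and 6.7, 3.3 and 5.6 in PH0. All 3 sets were separate, and the log2 difference was 2.82 ± 0.37 (adjusted p = 0.000223, limma), with 1.64 ± 0.42 against S0 and 4 ± 0.42 against PH0. Its neighbour VSP2, of similar sequence, had 16.2, 14.2 and 27.9 in PS0, against 5.0, 9.5 and 1.9 in S0 and 0.9, 0.0 and 1.7 in PH0, at 2.65 ± 0.45 (adjusted p = 0.00262, limma). The JAZ repressors and the synthesis gene AOS were not called, and the list median was 0.21, beside -0.15 for all tested genes. The remaining genes of the 12 largest rises, taken among called nuclear genes with a PS0 mean of at least 20 and no overlap with the 6 other libraries, were AT1G15330 (a CBS domain protein, 3.87 ± 0.39), AT2G38240 (an oxygenase of the 2-oxoglutarate and iron type, 3.54 ± 0.37), AT5G48430 (an aspartyl protease family member, 3.27 ± 0.36), AT3G62950 (a thioredoxin superfamily protein, 2.88 ± 0.54), AT1G07985 (uncharacterized, 2.74 ± 0.34) and AT4G18280 (a glycine-rich wall-like protein, 2.69 ± 0.42). AT1G15330 had 48.6, 28.3 and 43.5 normalized counts in PS0, against at most 2.5 in S0 and 5.0 in PH0. AT5G48430 had 131.6, 166.4 and 149.0 in PS0, against 26.0, 26.9 and 8.9 in S0 and 13.0, 16.0 and 6.7 in PH0. The adjusted p of these 6 by limma was at most 0.00594, and only AT3G62950 lost its call in a leave-one-out fit, with 0.0515 without PS0 replicate 3.

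The largest falls were in proline-rich extensins, glycoproteins that stiffen the walls of root hairs. Extensin-like genes made up 6 of the 12 largest falls among called nuclear genes with an S0 and PH0 mean of at least 20 and no overlap between PS0 and the 6 other libraries. EXT6 had 3.0, 4.4 and 0.0 normalized counts in PS0, against 113.3, 44.3 and 46.5 in S0 and 73.4, 61.7 and 146.9 in PH0. The lowest of the 6 other libraries was thus far above the highest PS0 library, at a log2 difference of -4.74 ± 0.77 (adjusted p = 0.00205, limma). EXT13 had 2.0, 0.9 and 0.0 in PS0, against 42.7, 33.2 and 22.9 in S0 and 13.9, 18.5 and 28.5 in PH0, at -3.86 ± 0.52 (adjusted p = 0.000271, limma). Both were called with any 1 library left out. AT4G08410 (-4.55 ± 0.86) was lost without PS0 replicate 3 (adjusted p = 0.0515, limma), and AT4G08400 (-3.58 ± 0.84) and EXT12 (-3.20 ± 0.74) without S0 replicate 1, PS0 replicate 3 or PH0 replicate 3, at adjusted p of up to 0.159 and 0.136. AT5G06630 (-3.19 ± 0.73) was lost without those 3 libraries or PS0 replicate 2, at up to 0.11. In RefSeq, 14 genes of the table have a product named proline-rich extensin-like family protein, a grouping made after these values were seen and given without a test. Of 12 that were tested 9 were called lower, beside 2.53% of all tested genes, and 12 lay below 0, with a median of -2.98 and a range of -4.74 to -1.72. With 1 library left out 3 to 7 of the 12 were called, 3 without PS0 replicate 3 and 4 without S0 replicate 1 or PH0 replicate 3. EXT6, EXT13 and AT1G26250 were called in every such fit, while EXT10 and AT3G54580 were called in none. Extensin genes share repeats, and the sources used here do not say how a read that matches several of them was treated.

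The remaining 6 of the 12 largest falls included wall and transport genes. The proline-rich wall protein PRP1 had 2.0, 5.3 and 0.0 normalized counts in PS0, against 46.5, 50.7 and 31.2 in S0 and 15.7, 13.6 and 15.6 in PH0, at -3.30 ± 0.54 (adjusted p = 0.0021, limma). The peroxidase PRX52 had 1.0, 2.7 and 0.0 in PS0, against 17.3, 3.2 and 7.6 in S0 and 21.9, 49.3 and 40.8 in PH0, at -3.19 ± 0.57 (adjusted p = 0.00439, limma). Its values of 2.7 in PS0 and 3.2 in S0 rest on few reads, since 1 read counts for 0.885 and 1.58 there. Against S0 alone PRX52 was not called (-2.16 ± 0.66, adjusted p = 0.0717, limma). AT5G60530, related to late embryogenesis abundant proteins, had 4.0, 26.6 and 34.2 in PS0, against 227.9, 197.9 and 145.8 in S0 and 153.6, 136.1 and 95.5 in PH0, at -3.19 ± 0.51 (adjusted p = 0.00171, limma). These 3 were called in every leave-one-out fit. NRT1.5, which loads nitrate into the xylem, averaged 5.07 ± 3.64 in PS0, against 91.8 ± 42.6 in S0 and 18.4 ± 4.0 in PH0, at -3.01 ± 0.63. Against PH0 alone NRT1.5 was not called (-1.92 ± 0.73, adjusted p = 0.207, limma). In the main comparison its adjusted p by limma was 0.0125, and 0.0799 without PS0 replicate 1. The same library ended the call of the mannose-binding lectin AT1G52060 (-3.05 ± 0.66, adjusted p = 0.0147, and 0.0747 without it) and of AT1G21525, with no product in RefSeq (-3.43 ± 0.66, adjusted p = 0.00701, and 0.0513 without it), by limma.

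**Figure D3:**
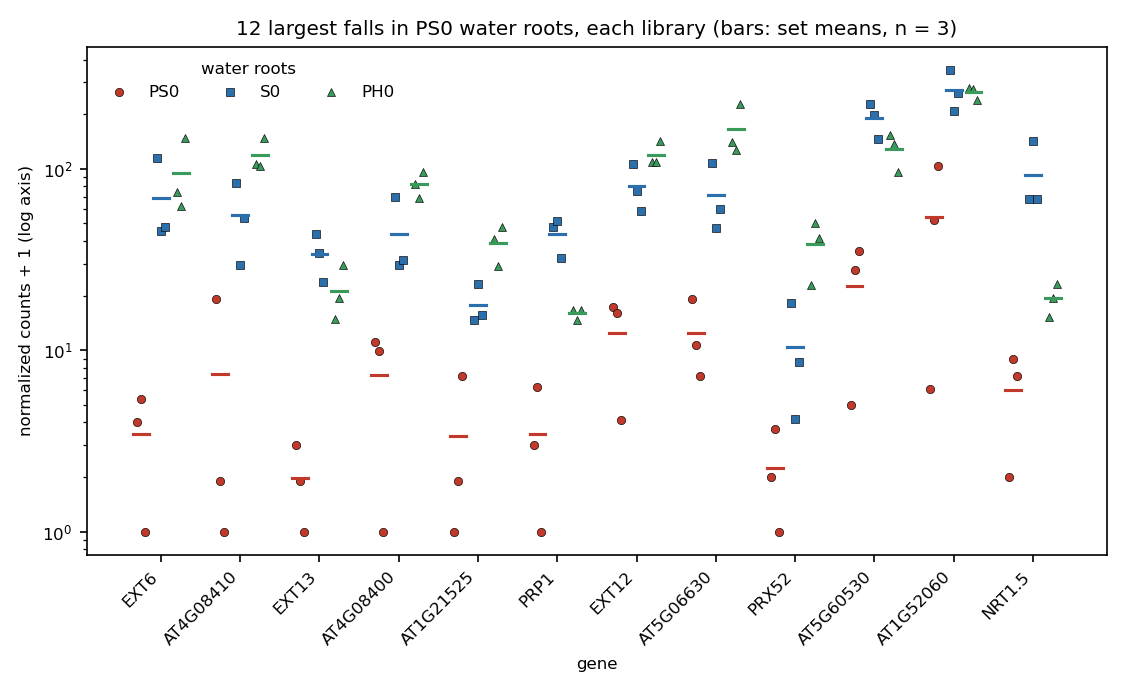
Normalized counts plus 1 (log axis) of the 12 largest called falls that met the conditions given here, in the 3 PS0 (red circles), 3 S0 (blue squares) and 3 PH0 (green triangles) water root libraries, with bars for the set means. The genes were chosen among called nuclear genes with an S0 and PH0 mean of at least 20 and all 3 PS0 points below the 6 others, so that separation is part of the choice. A point at 1 is a library with 0 counts.

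Some markers of root cell types were lower in PS0 roots, among them hair and endodermis genes. Of 25 listed markers 24 are in the table and 23 were tested, with 7 lower, none higher and a median of -0.79, beside 302 of all 11950 genes (2.53%) called lower. With 1 library left out 2 to 6 of them were called, 2 without PH0 replicate 3, 3 without S0 replicate 1 or 3, PS0 replicate 1 or 3 or PH0 replicate 2, and 4 without PS0 replicate 2. Among 9 markers of root hair and epidermis 4 were lower: the leucine-rich repeat extensin LRX1 (-2.50 ± 0.63) and the xyloglucan-modifying enzymes XTH12 (-1.87 ± 0.36), XTH13 (-2.21 ± 0.52) and XTH14 (-1.15 ± 0.26). XTH12 had 19.2, 17.7 and 18.6 normalized counts in PS0, against 105.3, 115.6 and 92.3 in S0 and 40.7, 52.2 and 50.8 in PH0 (adjusted p = 0.00693, limma). The PS0 libraries were lowest, PH0 between and S0 highest. XTH12, XTH13 and XTH14 are similar in sequence. XTH13 was near the floor, with 0.0, 4.4 and 0.0 in PS0, 11.1, 23.7 and 11.5 in S0 and 3.6, 3.3 and 2.8 in PH0. PS0 and PH0 overlapped for it, and edgeR did not call it (adjusted p = 0.413). EXPA7, an expansin of hair cells, averaged 70.2 ± 17.3 in PS0, 71.4 ± 19.5 in S0 and 65.4 ± 3.9 in PH0 and was not called (0.03 ± 0.27).

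In the endodermis 2 of 7 tested markers were lower, both with a part in the Casparian strip, and 1 of 2 suberin genes. The median of the 7 endodermis markers was -0.52, with 5 below 0 and 2 above it, up to 0.55. Of all tested genes 2.53% were called lower. ESB1, a dirigent protein needed to place lignin there, had 204.5, 247.9 and 183.2 normalized counts in PS0, against 646.6, 476.5 and 499.1 in S0 and 444.6, 389.8 and 427.9 in PH0, at -1.17 ± 0.22 (adjusted p = 0.00523, limma). The peroxidase PER64 (-0.91 ± 0.23) and CYP86A1, a fatty acid hydroxylase of suberin (-0.84 ± 0.20), had adjusted p of 0.0362 and 0.0218 by limma. edgeR called neither of these 2 (adjusted p = 0.157 and 0.114). ESB1 and XTH12 were called in every leave-one-out fit, at adjusted p of 0.0094 to 0.0351. The other 5 were not. Their adjusted p reached 0.205 for PER64, 0.106 for CYP86A1, 0.11 for LRX1 and 0.0764 for XTH14. It was over 0.05 in 6, 6, 8 and 3 of 9 cases. XTH13 reached 0.138 and lost its call in 8 of 9 cases. In those without an S0 library it fell below the minimum for testing and had no p-value. None of 4 stele markers was called by limma, edgeR or DESeq2, with 0 at an unadjusted p under 0.05. Fewer cells of a type and less RNA per cell cannot be told apart in whole roots.

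The purity of the root samples was read from 21 shoot photosynthesis markers, summed. They reached 1163.8, 1014.9 and 1813.1 normalized counts in PS0, 877.7, 1278.9 and 1363.8 in S0 and 621.7, 546.7 and 648.1 in PH0, with at most 2 of the 21 at 0 in a library. The same markers summed to at least 147226 in every shoot library. PS0 and S0 overlapped and PH0 was lowest, and the part of this in the falls and rises above was not tested. Of 20 tested markers 1 was called, the light-harvesting gene LHCB2.3, with 80.0, 46.9 and 37.3 in PS0, against 5.6, 9.5 and 9.5 in S0 and 6.7, 7.4 and 7.3 in PH0. Its log2 difference was 2.63 ± 0.29 (adjusted p = 5.45e-05, limma), while the list median was 0.38. Of all tested genes 1.41% were called higher.

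**Figure D4:**
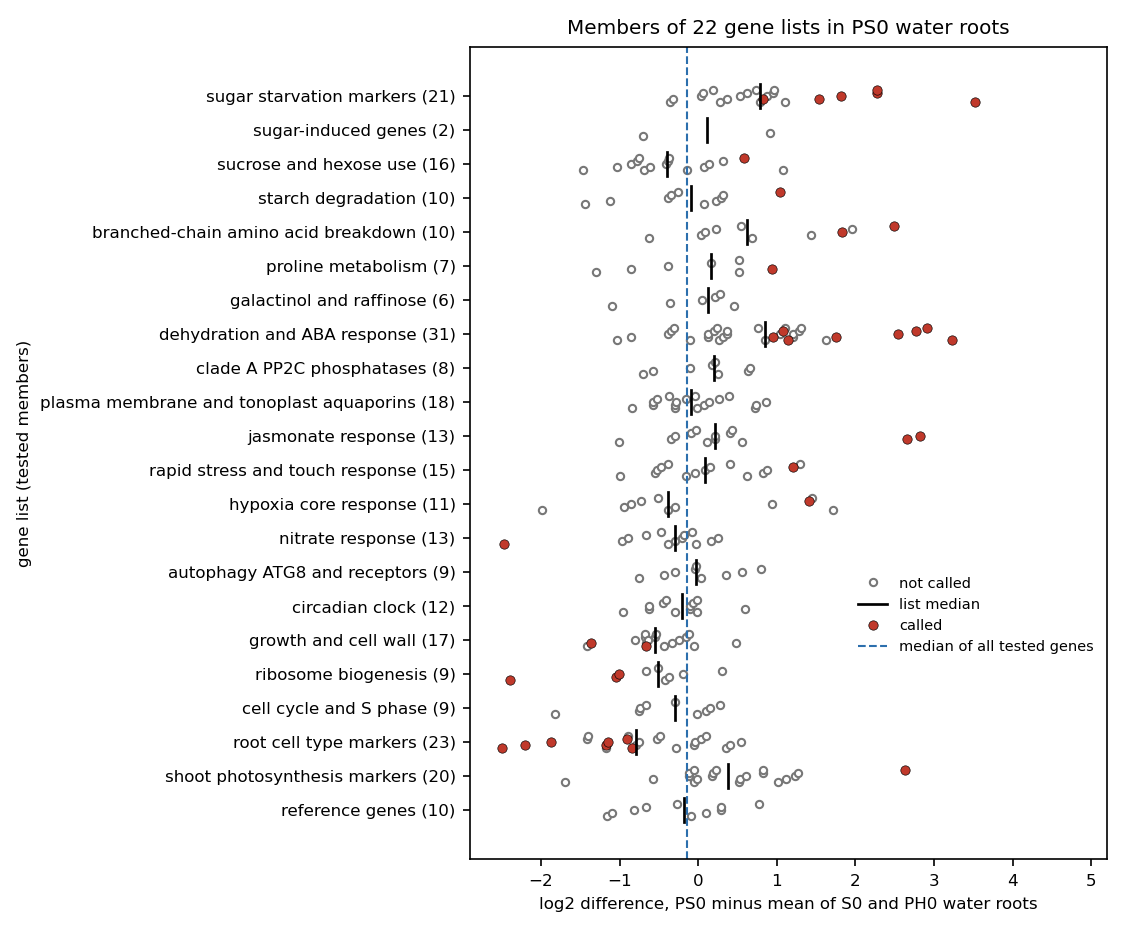
Log2 difference between PS0 and the mean of S0 and PH0 water roots for each tested member of 22 gene lists (rows, with the number tested). Filled red points were called, open points were not, short bars are list medians and the dashed line is the median of all tested genes (-0.148). The sugar starvation and dehydration lists have their medians furthest right, at 0.78 and 0.85, and the root cell type markers furthest left, at -0.79.

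Other lists held few calls, beside 1.41% of all tested genes called higher and 2.53% called lower. Nucleolar genes of ribosome biogenesis had 3 of 9 tested members lower and none higher (1 or 2 called with any 1 library left out), with a median of -0.51. The methyltransferase fibrillarin 2, FIB2, had 239.9, 251.4 and 183.2 normalized counts in PS0, against 445.9, 509.7 and 529.7 in S0 and 449.0, 383.6 and 398.3 in PH0, at -1.01 ± 0.18 (adjusted p = 0.00436, limma). Its near-identical copy FIB1 averaged 622.2 ± 84.4 in PS0, 503.0 ± 69.6 in S0 and 507.7 ± 10.6 in PH0 and was not called. Nucleolin NUC-L1 (-1.05 ± 0.25) and the nucleolar protein YAO (-2.39 ± 0.66) had adjusted p of 0.0224 and 0.0492 by limma, with losses in 5 and 8 of 9 leave-one-out fits, at up to 0.148 and 0.27. Of 17 growth and wall genes 2 were lower, XTH5 (-1.37 ± 0.26, adjusted p = 0.00701, and 0.0545 without PS0 replicate 3, by limma) and the arabinogalactan protein FLA9 (-0.67 ± 0.18, adjusted p = 0.0492, and 0.0648 to 0.201 in all 9 leave-one-out fits).

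Among 13 nitrate genes 1 was lower, beside 2.53% of all tested genes called lower and 1.41% called higher. This was NRT2.1, the high-affinity nitrate transporter of roots, with 8.1, 13.3 and 21.7 normalized counts in PS0, against 54.5, 126.6 and 142.6 in S0 and 59.5, 58.8 and 68.2 in PH0. The PS0 libraries lay below all 6 others, S0 and PH0 overlapped, and the log2 difference of -2.47 ± 0.58 had an adjusted p of 0.0221 by limma, and of 0.0267 to 0.109 with 1 library left out, over 0.05 in 5 of 9 cases. Of 15 touch and rapid stress genes the calmodulin-like TCH3 was higher, with 995.0, 832.2 and 922.2 in PS0, against 224.8, 246.9 and 305.0 in S0 and 620.1, 605.6 and 588.8 in PH0. For TCH3 (1.21 ± 0.27) the adjusted p by limma was 0.016, and 0.0676 and 0.0623 without PS0 replicate 1 or 3. Of 11 hypoxia genes the ethylene response factor HRE1 was higher, at 137.3 ± 52.3 in PS0, 69.8 ± 13.8 in S0 and 34.3 ± 2.71 in PH0 (1.41 ± 0.32, adjusted p = 0.0195, and up to 0.136 with 1 library left out, over 0.05 in 3 of 9 cases, by limma). The hypoxia list as a whole did not rise, with a median of -0.38 and 7 of the 11 below 0, down to -1.99. At an unadjusted p under 0.05 by limma 3 of them were higher and 2 lower. None of 9 autophagy, 12 clock, 9 cell cycle and 10 reference genes was called by limma, with 0, 4, 1 and 3 of them at an unadjusted p under 0.05. edgeR called none of these either, and DESeq2 1 reference gene.

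**Figure D5:**
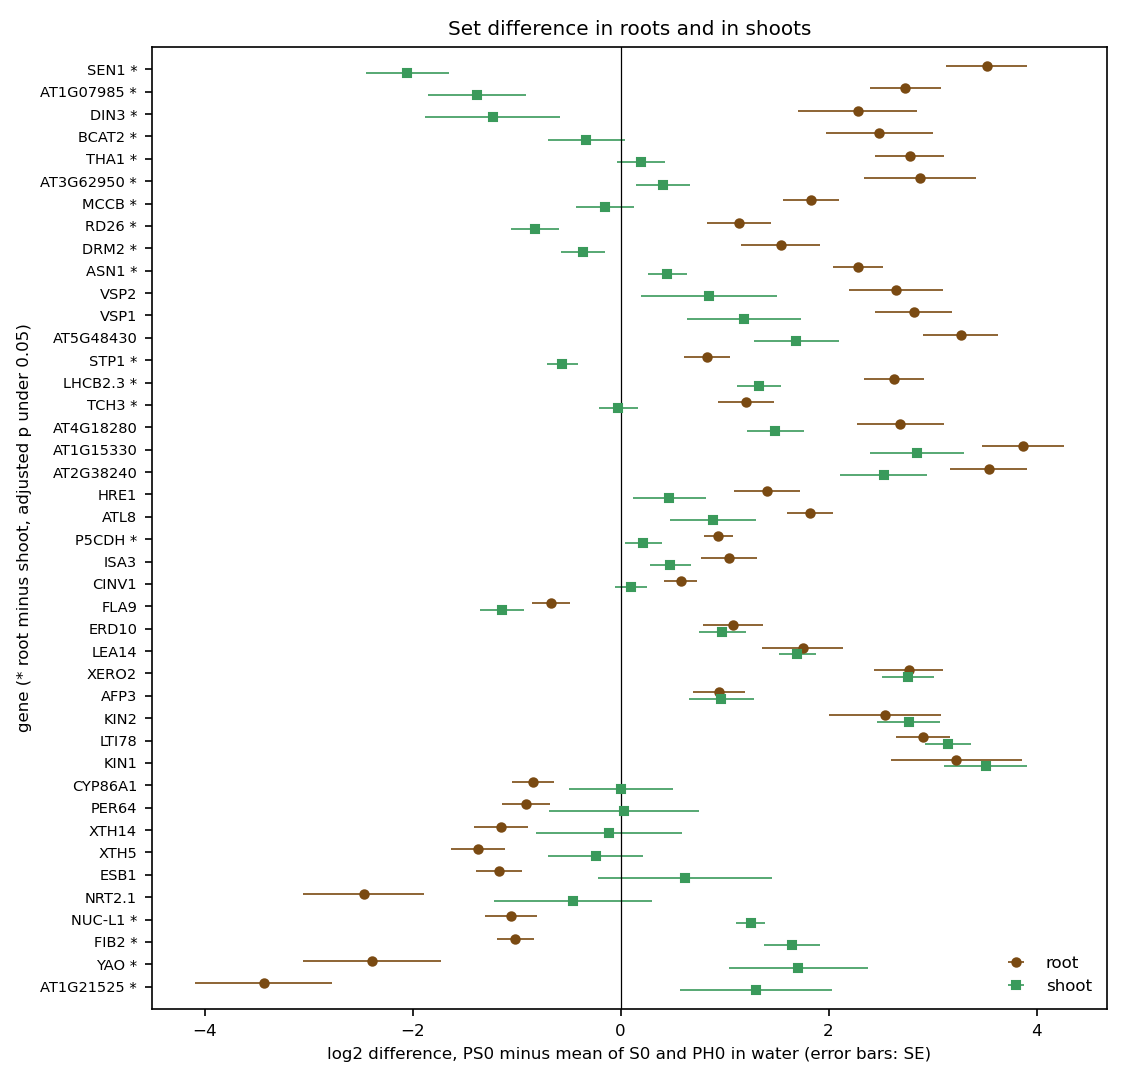
Log2 difference between PS0 and the mean of S0 and PH0 in water roots (brown circles) and in water shoots (green squares), with standard errors, for the 42 named or called list genes that were tested in both tissues. An asterisk marks genes whose difference between tissues had an adjusted p under 0.05. SEN1 is higher in PS0 roots and lower in PS0 shoots, while LTI78, XERO2 and KIN1 are higher in both.

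The shoots of the same 3 sets gave a second readout. Their depth was uneven, with 161.7 kiloreads in PH0 replicate 1 and 512.6 in PS0 replicate 1. The other water shoot libraries held 1099.8 to 3622.4 kiloreads. In those 2 shallow libraries 1 read counts for 11.1 and 3.53 normalized counts, so low values there rest on few reads. Of 34 dehydration genes tested in shoots 13 were higher in PS0 and 2 lower, with a median log2 difference of 0.62, beside -0.06 for all genes tested there. LTI78 was higher in PS0 shoots by 3.15 ± 0.22 (adjusted p = 4.04e-08), XERO2 by 2.76 ± 0.25 (1.58e-06) and KIN1 by 3.51 ± 0.40 (1.62e-05), by limma. RD26, called higher in PS0 roots, was lower in PS0 shoots (-0.82 ± 0.23, adjusted p = 0.0237), as was ERD1, which encodes a Clp ATPase of chloroplasts (-1.65 ± 0.48, adjusted p = 0.0296, limma). For LTI78, XERO2 and KIN1 the root minus shoot difference was -0.24 ± 0.35, 0.01 ± 0.42 and -0.28 ± 0.80, with adjusted p of 0.748, 0.994 and 0.887, which does not show that the tissues respond alike. Of 19 sugar starvation genes tested in shoots 1 was higher in PS0 and 4 were lower, with a median of -0.56. SEN1 averaged 1180.8 ± 287.9 normalized counts in PS0 shoots, against 5757.8 ± 1302.0 in S0 and 4669.8 ± 2961.4 in PH0 shoots (-2.05 ± 0.40, adjusted p = 0.00253, limma), opposite to its rise in roots. ASN1 averaged 1218.7 ± 256.4 in PS0 shoots, 586.7 ± 143.7 in S0 and 1376.2 ± 338.2 in PH0 shoots and was not called there (0.45 ± 0.19, adjusted p = 0.134, limma). The root minus shoot difference was 5.56 ± 0.60 for SEN1 (adjusted p = 5.46e-07) and 1.83 ± 0.32 for ASN1 (0.000468), by limma. FIB2 was lower in PS0 roots and higher in PS0 shoots (101.1 ± 13.7 in PS0, 38.3 ± 17.8 in S0 and 28.3 ± 4.44 in PH0), with a root minus shoot difference of -2.66 ± 0.31 (adjusted p = 1.66e-06, limma). Over all 9191 genes tested in both tissues 494 differed in this way (5.37%), 228 with the more positive value in roots (2.48%) and 266 with the more negative (2.89%), and 283 without root PS0 replicate 3. In shoots alone 1256 of 10459 genes separated PS0 from the other sets (12%), 559 of them higher in PS0 (5.34%) and 697 lower (6.66%).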

How the data were processed

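MARS-seq, which reads the 3′ ends of transcripts, was applied to whole roots and whole shoots. The authors deposited 1 table of normalized signal for 16283 genes in 36 libraries, rounded to 0.1. DESeq2, HTSeq, STAR 2.4.2a, cutadapt and bcl2fastq are listed in the submitters' processing notes. The sources used here give no build, annotation, strand setting, UMI handling or gene filter.

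Whole read counts were recovered from the steps of the deposited signal, with at least 99.916% of values whole to within 0.051 of the table's values. edgeR called 335 genes on these reads. Of the identifiers, 16183 matched RefSeq. Differences were tested with limma 3.58.1 (trend option) on log2 of the signal plus 1 in 18 root libraries and 6 group means, for genes with 5 or more in at least 3 libraries. In simulated data for this comparison over 11950 genes it recovered 95.9% and 95.5% of falls and rises of 2 on the log2 scale, 36.8% and 30% of those of 1, with 16 false calls. The simulation gave all genes 1 fixed spread between replicates and changed only genes with a mean of at least 20. It held no library that stood apart, as PS0 replicate 3 does. Recovery and false calls in the real data may therefore differ from these values. edgeR 4.0.16 and DESeq2 1.42.0 ran on the recovered reads in R 4.3.3. Tissues were compared with 36 libraries and 12 group means.

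Named genes are the 12 largest rises and falls among called nuclear genes with a mean of 20 or more on the higher side and no overlap between PS0 and the 6 others, plus members of 22 lists (358 genes). Comparison, members and lists were chosen with earlier results of these data known. The alternatives were other scalings, pseudocounts, filters, sample sets, a replicate block, a depth term, edgeR, DESeq2 and leaving out each library.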

Additional observations from a re-analysis of the deposited data

Results flagged for a closer look

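The difference between PS0 and the mean of S0 and PH0 differed between roots and shoots in 494 genes (limma, adjusted p under 0.05), 228 with the more positive value in roots and 266 with the more negative. Among the 42 named or called list genes tested in both tissues, 18 were in this number, beside 5.37% of all 9191 genes tested in both. These 42 were chosen by their call in roots, and the root difference is part of the tissue difference. Their share and their signs are therefore favoured by the choice. All values below are root minus shoot on the log2 scale.

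Sugar starvation and amino acid genes had the more positive value in roots: SEN1 at 5.56, DIN3 at 3.51, DRM2 at 1.91, ASN1 at 1.83, STP1 at 1.39, BCAT2 at 2.82, MCCB at 1.98, THA1 at 2.58 and P5CDH at 0.72. SEN1 and STP1 were also called lower in PS0 shoots (-2.05 and -0.56, adjusted p = 0.00253 and 0.0169, limma). P5CDH, at an adjusted p of 0.0491 by limma, lost its call in 19 of 22 alternatives. The NAC factor RD26 stood at 1.96, with -0.82 in shoots (adjusted p = 0.0237, limma), unlike LTI78, XERO2 and KIN1.

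The nucleolar genes FIB2 at -2.66, NUC-L1 at -2.30 and YAO at -4.11 had the more negative value in roots. FIB2 and NUC-L1 were called higher in PS0 shoots, by 1.65 and 1.25 (adjusted p = 0.000631 and 1.63e-05, limma). AT1G07985 stood at 4.12, AT3G62950 at 2.47, LHCB2.3 at 1.31, TCH3 at 1.23 and AT1G21525 at -4.73. Over 22 alternatives the call was lost for LHCB2.3 in 6, TCH3 in 7, AT3G62950 in 3, DIN3 in 2, and DRM2, STP1 and YAO in 1 each. The other 10 kept their call in every alternative run, and no sign changed.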

How the results depend on the processing

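Calls of PS0 against the mean of S0 and PH0 numbered 471 in the fit as reported. They numbered 1139 in the 9 water root libraries alone and 886 with a depth term, against S0 alone 1614 and 1768, and against PH0 alone 945 and 405. The count of 532 against S0 became 880 with quantile normalization (557 higher), 1043 with a pseudocount of 5, 953 without the filter and 328 with a filter of 20, and TMM called 226 higher and 221 lower. The count of 264 against PH0 became 545 with DESeq2. The difference between tissues fell to 248 genes with TMM. Leaving out 1 library gave 222 to 404 for the main comparison, 131 to 673 against S0, 84 to 217 against PH0 and 283 to 657 between tissues. Chosen after seeing the data, edgeR without PS0 replicate 3 called 176, 302 and 129 genes, and the 8 water libraries without it called 1785, 3699 and 1125. The cause of these changes was not tested.

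Of 56 named or called genes none changed sign in any alternative. The call was lost for 27 without PS0 replicate 3, 21 without PH0 replicate 3, 19 without PS0 replicate 1, 8 each with edgeR and the replicate block, and 0 of the 55 with an adjusted p from DESeq2. The replicate block gave 429 calls in the main comparison. Same-numbered libraries of different water sets did not deviate together (r of -0.224 to 0.295 over 9 pairs, 2 over 0.1), so numbers were not treated as pairs. The low depth of PS0 replicate 3 limits genes under about 9.31 normalized counts, and 2-fold changes were recovered in 30% to 36.8% of simulated cases. With its 1 fixed spread for all genes, the simulation does not give the recovery for genes that vary more between replicates.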

Other observations

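Of 10 reference genes, 4 were higher in S0 than in PH0 roots and none lower, beside 3.41% of all tested genes higher, although both sets are averaged in the comparison. They were ACT2 (2.71 ± 0.57 on the log2 scale), ACT7 (2.57 ± 0.50), ACT8 (2.46 ± 0.55) and GAPC2 (2.63 ± 0.62), at adjusted p of 0.0268, 0.0193, 0.032 and 0.0382 by limma. The actin gene ACT2 averaged 91.3 ± 37.8 normalized counts in PS0, 515.0 ± 246.0 in S0 and 72.5 ± 4.0 in PH0, and ACT7 averaged 58.3 ± 30.9 in PS0, 319.5 ± 179.8 in S0 and 48.7 ± 9.02 in PH0. PS0 minus S0 was -2.46 ± 0.57 for ACT2 and -2.44 ± 0.50 for ACT7 (adjusted p = 0.0218 and 0.00974, limma), whereas PS0 minus PH0 was 0.25 ± 0.57 and 0.13 ± 0.50 (0.845 and 0.915). The glycolytic gene GAPC2 averaged 203.5 ± 26.0 in PS0, 912.3 ± 238.9 in S0 and 144.1 ± 18.3 in PH0, and PS0 was not called against either (adjusted p = 0.0579 and 0.709, limma).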
